A study of Sorghum bicolor with 12 samples.

Results

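The transcripts described here are those whose abundance at least doubled at every step down the vegetative sorghum stem, from the youngest internode to the oldest of 4. They were chosen from their measured values. RPKM, a count of reads divided by the length of the transcript and by the library's mapped reads, was averaged over 3 replicates in each internode, 0.5 was added, and this sum had to be at least 2 times as high in Int2 as in Int1, in Int3 as in Int2 and in Int4 as in Int3, with an Int4 mean of at least 5. Of 47205 transcripts at 34211 loci in the table, 106 transcripts at 104 loci met the rule, after 5 transcripts of 3 genes were left out by it. Because the values chose the members, all of their levels and steps are given as a description. Counts of members past a threshold show only how the steps compare with the replicate spread.

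All 12 libraries came from the photoperiod-sensitive bioenergy inbred R.07020 of Sorghum bicolor, grown in a growth chamber under a 14 h photoperiod, which kept the plants vegetative, and harvested 60 days after planting. The topmost 4 internodes below the shoot apex were cut apart at the nodes, with Int1 the youngest and Int4 the oldest, and polyadenylated RNA was sequenced from 3 replicates of each. There was 1 genotype and no treatment, so the groups differ by internode position, and position and age cannot be told apart. The study took the 4 internodes from 3 plants, which it calls its replicates, so libraries of different internodes can share a plant. The labels do not say whether a replicate number marks the same plant in all internodes. The fit behind the adjusted p values below treats the 12 libraries as independent and sets changes against the spread between them.

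In a grass stem, new internodes arise below the shoot apex, elongate from a meristem at their base, and then stop growing while secondary walls are laid down and lignified. The older an internode is, the more of its cells have left division and elongation. Transcripts that climb along such a series can come from cell types that become more common, from cells that each hold more of the RNA, or both, and in whole internodes these cannot be told apart.

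The summed RPKM of the members in replicates 1, 2 and 3 was 356, 494 and 435 in Int1. It was 1074, 1355 and 1372 in Int2, 4316, 5575 and 5644 in Int3, and 16650, 15147 and 12863 in Int4. No library overlapped one from another internode. As a share of all RPKM in a library, the members went from 0.0856% ± 0.0131 (Int1) to 0.251% ± 0.0345 (Int2), 1.07% ± 0.130 (Int3) and 2.97% ± 0.356 (Int4) (SD, n = 3). All library totals lay between 467612 and 508319 RPKM, and relative depth, read from the spacing of low values, lay between 0.835 and 1.06 of that of Int1 replicate 1. Transcripts of both lists checked for tissue were present in every library. Their selection on these libraries makes this likely, so it cannot show that the tissue matched its label. The summed RPKM of 16 cellulose synthase transcripts ran from 804 to 860 over the Int1 libraries and from 2233 to 3029 over those of Int4. That of 25 photosynthesis transcripts ran from 363 to 405 and from 437 to 565. Both lists were selected by the study on these libraries, and their part in the members' values was not tested.

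The median member had a mean RPKM of 1.25 in Int1 and 5.93 in Int2, then 23.3 in Int3 and 65.7 in Int4. The lowest Int4 mean was 6.37 and the highest 1460.5. An Int4 mean of at least 100 was reached by 33 members, 62 lay between 20 and 100, and 11 were under 20. In Int1, 44 members had a mean under 1 and 11 had a mean of at least 10. Low Int1 values included 28 of 318 single values listed at 0, spread over 19 members, of which 2 were at 0 in all 3 Int1 libraries. Only 1 member value was at 0 in Int2, and none in Int3 or Int4. No member was among the 100 most abundant transcripts of Int1, where the best placed ranked 1897th, while 10 were among the 100 most abundant of Int4, where the best placed ranked 9th.

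**Figure D1:**
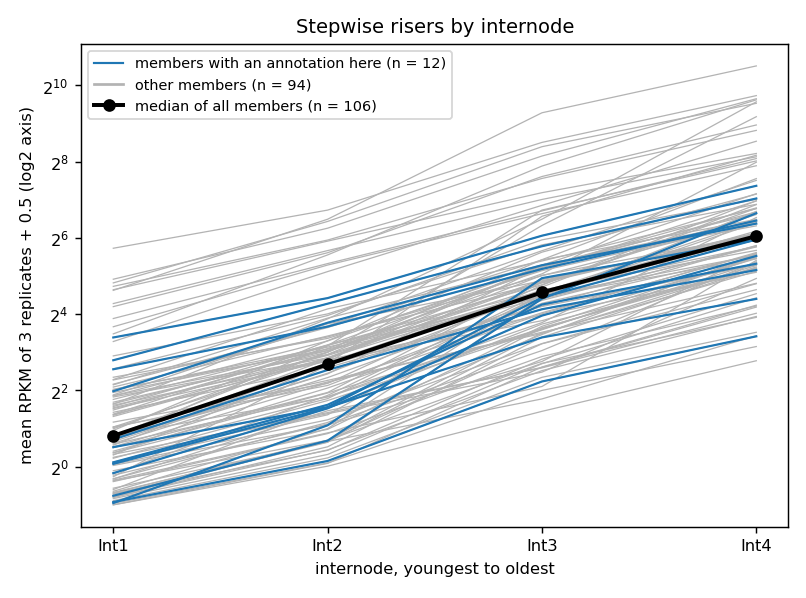
Mean RPKM of 3 replicates plus 0.5, on a log2 axis, for each of the 106 members in Int1 to Int4, with the 12 annotated members in blue, the others in grey and the median of all in black. The lines climb at every step by construction of the rule, and the median is steepest from Int2 to Int3, where it goes from 5.93 to 23.3 RPKM before adding 0.5.

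The rule sets a least step but not which step is the largest. The step from Int2 to Int3 was the largest for 73 of the 106 members, that from Int1 to Int2 for 17, and that from Int3 to Int4 for 16. The median step was 2.67-fold from Int1 to Int2, 3.87-fold from Int2 to Int3 and 2.72-fold from Int3 to Int4, as ratios of mean RPKM plus 0.5. Quartiles on the log2 scale were 1.16 and 1.70 for the first step, 1.59 and 2.39 for the second and 1.23 and 1.74 for the last, so the lower quartile of the second step lay near the upper quartiles of the other steps. A step of at least 4-fold was seen in 13, 44 and 15 members in turn. Over all 26320 transcripts tested, the median log2 step was -0.06, -0.01 and -0.13 in turn, each below 0. Dividing every library by a scale factor, the median of its ratios to the average of all libraries, raised these medians by 0.06, 0.03 and 0.13 and the members' median steps to 1.46, 1.99 and 1.60 on the log2 scale. From Int1 to Int4 the members' ratios ran from 10.96 to 291, with a median of 29.1.

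The steps were then set against the replicate spread. In 100 of 106 members every Int2 library was above every Int1 library, where 17.0% of all tested transcripts had this order. The count was 102 of 106 for Int3 over Int2 (25.5% of all tested) and 104 of 106 for Int4 over Int3 (13.6%). At all 3 steps at once, 95 of 106 members showed no overlap, against 2.95% of all tested transcripts. With limma and Benjamini-Hochberg adjustment over all 26320 transcripts, at an adjusted p under 0.001, a log2 change no smaller than 1 and 2 RPKM or more as the mean of an internode compared, Int2 was called higher than Int1 for 23 members (0.433% of all tested), Int3 higher than Int2 for 86 (4.81%) and Int4 higher than Int3 for 48 (2.49%). At an adjusted p under 0.05 alone the counts were 92, 105 and 105. No share of all tested transcripts was taken at that threshold, so these 3 counts have no background beside them. All of these counts use the contrasts that chose the members, and nothing is read from them beyond how the steps compare with the spread. All 106 passed the filter on low values, which their Int4 minimum ensures.

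Without the filter on low values these calls fell to 3, 50 and 14, and in fits of only the 6 libraries compared to 0, 52 and 23, though 103 members were higher in Int2 than in Int1 at an unadjusted p under 0.05 in that limma fit. Leaving out 1 library brought the calls from Int1 to Int2 to between 5 and 21. They numbered 5 without Int2 replicate 2, 7 without Int1 replicate 1 or replicate 3, and 12 without Int1 replicate 2. Calls from Int3 to Int4 went to 23 without Int3 replicate 1, Int4 replicate 1 or Int4 replicate 2, and to 26 without Int3 replicate 2. The share of all tested transcripts called in each of these settings is not given here. The drops therefore cannot be read as particular to the members.

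**Figure D2:**
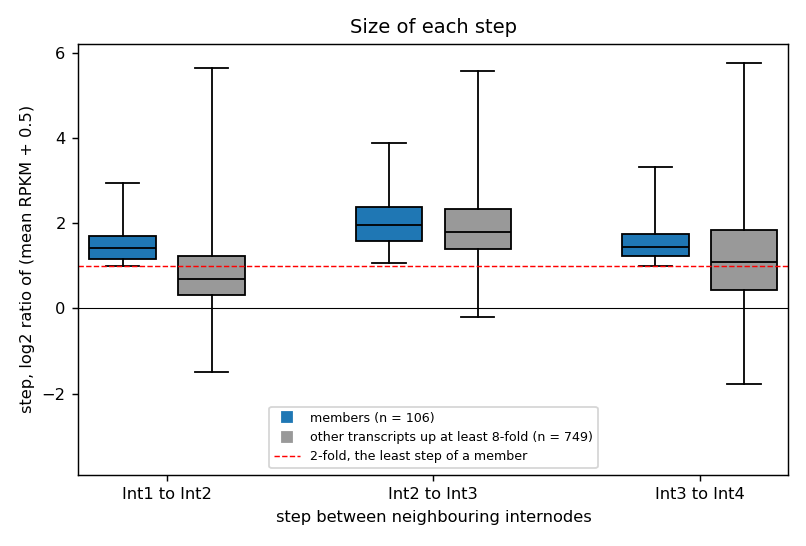
Log2 ratio of mean RPKM plus 0.5 at each step for the 106 members (blue) and for the other 749 transcripts whose ratio from Int1 to Int4 was at least 8 (grey), with boxes from the lower to the upper quartile, the median as a line and whiskers to the extremes. All members lie above the dashed 2-fold line by the rule, and the grey median lies under it from Int1 to Int2, at 0.69.

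Doubling at 3 steps makes at least an 8-fold ratio from Int1 to Int4, but most transcripts with such a ratio got there by another course. Of 855 transcripts with a ratio of at least 8 and an Int4 mean of at least 5, 106 doubled at all 3 steps, which is 12.4%, while 561 doubled at 2 steps and 188 at 1. The other 749 most often had a small first step. Their median log2 step was 0.69 from Int1 to Int2, 1.79 from Int2 to Int3 and 1.099 from Int3 to Int4, beside 1.42, 1.95 and 1.44 in the members. The step from Int1 to Int2 alone stayed under 2-fold in 335 of them, that from Int3 to Int4 alone in 210, and that from Int2 to Int3 alone in 16. The largest step of these other transcripts was also most often that from Int2 to Int3, in 433 of 749, while it was that from Int3 to Int4 in 219. Members were more abundant in Int4, with a median of 65.7 RPKM beside 20.8, and their median coefficient of variation there was 17.7% beside 21.1% in the others and 12.5% in all tested transcripts with an Int4 mean of at least 5. The mirror of the rule, with mean RPKM plus 0.5 at least halving at each step from an Int1 mean of at least 5, was met by 9 transcripts, by 2 after the libraries were scaled, by 5 without Int3 replicate 2 or Int4 replicate 2 and by 21 without Int4 replicate 3. One of the 9, Sobic.006G228100.1, is placed with cell wall modification and had means of 267, 128, 17.0 and 3.39 RPKM from Int1 to Int4.

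At the edge of the rule, the smallest step ratio of Sobic.006G257700.1 was 2.001 and those of Sobic.004G225100.1 and Sobic.003G323500.1 were 2.004 and 2.005. Just outside lay Sobic.009G100500.1 at 1.999, Sobic.001G438100.1 at 1.994 and Sobic.009G064766.1 at 1.991. Sobic.009G100500.1 had means of 5.78, 12.05, 52.4 and 137 RPKM, a course like those of the members. The Int4 minimum kept no transcript out on its own, and the member closest to it, Sobic.007G227300.1, had an Int4 mean of 6.37. No gap in the step ratios set the members apart from the transcripts next to them.

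Few members have a name here. The copy of the study's annotated list that was used holds 770 transcripts and ends within the flavonoids, and 12 members are in it, all of which the study had selected as differentially expressed in these same libraries. The other 94 are given by their identifiers alone. Of the 12, 3 met the rule whichever library was left out and 9 did not. By their best matches in Arabidopsis, the 12 fall into a group each of 4 for cell wall, lipids, and aromatic and secondary metabolism.

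The 4 cell wall members were matched to 3 wall enzymes and a wall protein. Xyloglucan endotransglucosylases cut and rejoin xyloglucan, the hemicellulose that coats cellulose microfibrils, and are known for their part in wall loosening and in fixing new wall in place. Sobic.006G205600.1, which matched the Arabidopsis enzyme XTH24, was the most abundant of them. Its RPKM was 7.22, 12.5 and 10.19 in Int1, 16.9, 22.5 and 23.5 in Int2, 32.5, 90.3 and 75.9 in Int3 and 214, 202 and 78.4 in Int4. Int4 replicate 3 lay below Int3 replicate 2, so these internodes overlapped, and without Int1 replicate 1, Int2 replicate 2, Int2 replicate 3 or Int3 replicate 1 this transcript no longer met the rule. Sobic.001G309000.1, matched to the related XTR8, read 4.13, 5.26 and 6.75 in Int1, 9.86, 14.9 and 12.02 in Int2, 38.1, 36.5 and 33.2 in Int3 and 123, 70.7 and 68.7 in Int4. Its groups did not overlap, Int4 replicate 1 stood well above the other Int4 libraries, and the rule was not met without Int1 replicate 1, Int2 replicate 2 or Int4 replicate 1.

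Sobic.004G244600.1 matched GH9B8, an endo-glucanase of glycoside hydrolase family 9, enzymes that cleave beta-1,4-glucan chains. Its RPKM was 0.40, 0.47 and 0.30 in Int1, 3.29, 2.70 and 1.18 in Int2, 12.4, 12.2 and 20.6 in Int3 and 56.2, 44.8 and 36.1 in Int4. It was nearly silent in Int1 and stayed a member whichever library was left out. Sobic.006G260200.1, a leucine-rich repeat protein placed with the cell wall proteins, read 3.23, 5.25 and 1.85 in Int1, 12.4, 15.0 and 12.2 in Int2, 28.5, 61.3 and 25.7 in Int3 and 68.2, 99.7 and 79.8 in Int4. Replicate 2 was the highest library in every internode, and the rule was not met without Int3 replicate 1, Int3 replicate 3 or Int4 replicate 2.

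The listed families around these members held calls in both directions, apart from glycoside hydrolase family 9. Of 17 transcripts described as xyloglucan endotransglucosylases in the list, limma called 7 higher and 8 lower in Int4 than in Int1, and 2 of the 17 are members. All 3 listed transcripts of glycoside hydrolase family 9 were called higher, while of 10 leucine-rich repeat wall proteins 3 were called higher and 7 lower. By whole category, 13 of 34 cell wall proteins were called higher and 16 lower, 14 of 39 in wall degradation higher and 9 lower, and 18 of 38 in wall modification higher and 13 lower. Median log2 ratios of Int4 to Int1 were -0.28 for the xyloglucan endotransglucosylases, 4.44 for glycoside hydrolase family 9 and -2.39 for the leucine-rich repeat proteins, and 0.41, 1.01 and 1.15 for the 3 categories in turn, beside -0.25 over all transcripts tested. Of all 26320, 12.4% were called higher and 14.2% lower, and after scaling of the libraries 15.0% and 9.75%. After scaling, calls for amino acid synthesis, given below, went from an even split to 26 higher and 15 lower, while no count for the wall lists moved by more than 2. The listed transcripts were chosen by the study as changed in these libraries, so a larger share than in all transcripts is built into every one of these lists.

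The 4 lipid members comprised a pair of lipid carriers and a pair of lipases. Non-specific lipid transfer proteins are small secreted proteins that bind fatty acids and phospholipids and are known for carrying wax and cutin monomers to the plant surface. Sobic.008G030700.1, matched to the Arabidopsis protein LTP1, had RPKM of 0.27, 0 and 0 in Int1, 1.53, 0.73 and 1.06 in Int2, 12.7, 20.3 and 29.2 in Int3 and 128, 95.6 and 75.9 in Int4. It went from almost no signal to a mean of 99.9, and it met the rule in every set with a library left out. Sobic.006G087200.1, of the glycolipid transfer protein family, read 0.30, 0.79 and 0.57 in Int1, 1.25, 3.16 and 2.88 in Int2, 8.67, 12.5 and 8.83 in Int3 and 16.2, 23.1 and 22.5 in Int4. Its last step had a log2 ratio of only 1.01, replicate 1 was its lowest library in each internode, and it dropped out without Int3 replicate 1, Int3 replicate 3, Int4 replicate 2 or Int4 replicate 3.

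Sobic.001G295700.1 matched a lipase that in Arabidopsis cleaves phosphatidylcholine, glycolipids and triacylglycerols. Its RPKM was 1.31, 1.31 and 0.81 in Int1, 4.31, 6.10 and 5.51 in Int2, 17.6, 16.4 and 17.1 in Int3 and 33.7, 37.8 and 34.2 in Int4, and it dropped out only without Int4 replicate 2. Sobic.001G429900.1 matched a secreted phospholipase A2, which removes a fatty acid from the middle carbon of a phospholipid. It read 0.46, 1.32 and 1.0 in Int1, 2.89, 2.44 and 2.04 in Int2, 18.0, 18.4 and 27.2 in Int3 and 88.8, 47.6 and 48.8 in Int4. Its step from Int2 to Int3 had a log2 ratio of 2.88 and was by far its largest, and it dropped out without Int1 replicate 1 or Int2 replicate 1. In the list, 7 of 11 lipid transfer transcripts were called higher in Int4 than in Int1 and 2 lower, and 28 of 55 in lipid degradation higher and 11 lower, with median log2 ratios of 1.90 and 1.25.

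The last 4 annotated members belong to aromatic amino acid synthesis and secondary metabolism. Arogenate dehydratase makes phenylalanine, the starting point of lignin and flavonoids, from arogenate in the plastid. Sobic.006G066200.1, matched to ADT6 of Arabidopsis, had RPKM of 6.37, 6.34 and 6.58 in Int1, 17.5, 20.4 and 18.7 in Int2, 48.7, 55.8 and 59.3 in Int3 and 160, 129 and 104 in Int4. Its 3 log2 steps of 1.48, 1.51 and 1.25 were close to even, it stayed a member whichever library was left out, and it is the only arogenate dehydratase in the list. Sobic.004G225100.1 matched the nitrilase NIT4, which in Arabidopsis acts on beta-cyanoalanine in cyanide detoxification. It read 0, 0 and 0.05 in Int1, 2.06, 1.39 and 1.42 in Int2, 26.4, 30.5 and 34.2 in Int3 and 71.6, 61.1 and 51.2 in Int4. The last step lay just inside the rule, which was not met without Int3 replicate 1 or Int4 replicate 1, while the step from Int2 to Int3 had a log2 ratio of 3.86.

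Sobic.006G226700.1 matched BANYULS of Arabidopsis, the anthocyanidin reductase that makes epicatechin, a building block of condensed tannins. Its RPKM was 0.60, 0.90 and 0.25 in Int1, 2.55, 3.25 and 1.95 in Int2, 15.4, 16.5 and 23.8 in Int3 and 43.4, 41.8 and 33.5 in Int4, and it dropped out without Int3 replicate 1, Int3 replicate 2 or Int4 replicate 1. Sobic.010G179400.1 matched the glucosyltransferase UGT72B3, of a family that attaches glucose to phenolic compounds. It was the least abundant annotated member, at 0.08, 0 and 0 in Int1, 0.66, 0.85 and 0.32 in Int2, 3.05, 3.34 and 6.24 in Int3 and 13.8, 8.82 and 8.02 in Int4, and it dropped out without Int2 replicate 2 or Int4 replicate 1. Among the listed flavonoid transcripts 29 of 35 were called higher in Int4 than in Int1 and 1 lower, with a median log2 ratio of 2.47, and the copy of that category is not complete. Of 59 transcripts in amino acid synthesis 22 were called higher and 22 lower, with a median of 0.69. Of 6 in the category that holds the nitrilase 4 were called higher and none lower, with a median of 1.54.

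**Figure D3:**
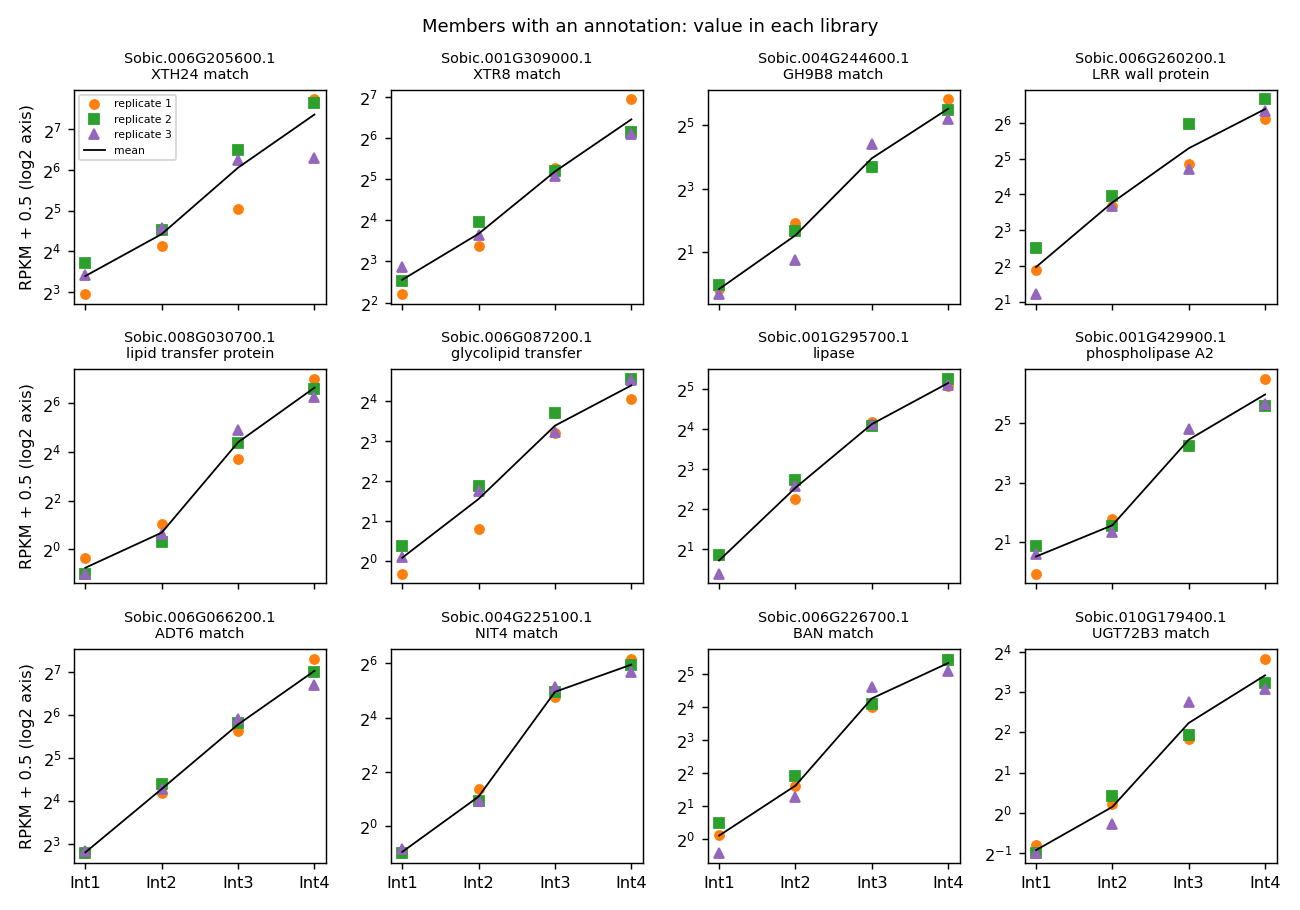
RPKM plus 0.5, on a log2 axis that differs between panels, of each of the 12 annotated members in the 12 libraries, with replicates 1, 2 and 3 as circles, squares and triangles and the line through the means. Replicate 3 of Int4 is set apart for the XTH24 match, at 78.4 RPKM beside 214 and 202, and the other panels climb without overlap between neighbouring internodes.

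The most abundant members were all without annotation here. Sobic.009G161500.1 had RPKM of 27.8, 24.8 and 20.01 in Int1, 98.5, 102 and 68.1 in Int2, 497, 720.0 and 652 in Int3 and 1693, 1556 and 1132 in Int4. With its Int4 mean of 1460.5 it made up 9.81% of the members' summed RPKM in that internode. Sobic.006G257700.1 started highest of all, at 45.5, 62.0 and 50.3 in Int1 and 90.3, 116 and 111 in Int2, and reached 281, 387 and 422 in Int3 and 982, 845 and 726 in Int4. Sobic.007G051800.1 went from 18.0, 36.8 and 34.4 in Int1 through 41.8, 67.8 and 118 in Int2 and 313, 288 and 250 in Int3 to 915, 703 and 795 in Int4. Both had Int1 values far above the member median, so their courses do not start from near silence.

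Sobic.002G344700.1 read 8.58, 10.3 and 13.2 in Int1, 36.2, 54.7 and 48.8 in Int2, 171, 238 and 299 in Int3 and 859, 851 and 654 in Int4. Sobic.001G079500.1, Sobic.004G065900.1, Sobic.009G204100.1 and Sobic.001G420100.1 had Int4 means of 740, 499, 452 and 371 RPKM from Int1 means of 27.8, 17.9, 26.1 and 9.24. Together with Sobic.006G211701.1 and Sobic.002G207300.1, described next, these make the 10 highest in Int4. They held 49.1% of the members' summed RPKM there and 47.3% in Int1, a like share in the youngest and the oldest internode.

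The largest ratio from Int1 to Int4 belonged to Sobic.002G207300.1, at 291 for mean RPKM plus 0.5. Its RPKM was 1.03, 1.54 and 1.91 in Int1, 6.55, 7.70 and 8.33 in Int2, 79.1, 78.4 and 82.0 in Int3 and 552, 624 and 564 in Int4. The replicates were close in every internode, and each step was at least 4-fold. Sobic.006G211701.1 read 2.41, 3.17 and 2.27 in Int1, 14.7, 17.2 and 10.8 in Int2, 61.1, 121 and 86.6 in Int3 and 801, 948 and 530.1 in Int4. Its largest step was the last, with a log2 ratio of 3.08, unlike most members. Sobic.001G410100.1 had 0.92, 0.63 and 0.66 in Int1, 4.92, 6.99 and 6.10 in Int2, 86.4, 99.2 and 97.7 in Int3 and 314, 262 and 286 in Int4. Its step from Int2 to Int3 was the largest step of any member, with a log2 ratio of 3.87.

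Other members with ratios near the top were lower in abundance or less even. Sobic.007G057100.1 read 52.9, 89.3 and 175 in Int3 and 317, 273 and 188 in Int4, with a log2 ratio from Int1 to Int4 of 7.29. Sobic.002G358200.1 had 0.11, 0.31 and 0 in Int1 and 59.8, 65.1 and 65.9 in Int4, with 1.31, 2.07 and 1.12 and then 13.4, 24.4 and 32.2 between. In Int4 its coefficient of variation was 5.16%, among the 5 lowest. The steadiest in Int4 was Sobic.001G100501.1, at 132, 129 and 125 RPKM and 2.72%, followed by Sobic.001G482800.1, at 42.9, 44.4 and 45.5 and 2.91%, and Sobic.009G212800.1, at 107, 108 and 115 and 4.103%. The least steady was Sobic.004G064400.1, at 86.5, 34.9 and 43.6 and 50.2%. Sobic.009G235500.1 read 27.4, 62.9 and 36.0 in Int4 and only 2.34, 6.46 and 2.60 in Int3, and its last step was the largest Int3 to Int4 step of any member, with a log2 ratio of 3.31.

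Overlap between neighbouring internodes was seen in 11 members. Sobic.003G323500.1 was the only one to overlap at more than 1 step. It read 4.24, 3.36 and 2.95 in Int1, 11.3, 7.29 and 6.28 in Int2, 11.3, 18.0 and 35.1 in Int3 and 62.0, 45.3 and 23.2 in Int4, and its ratio from Int1 to Int4 was the smallest of all, at 10.96. Sobic.010G135100.1 had 0.42, 0.86 and 1.97 in Int2 and 4.03, 3.66 and 1.1 in Int3, so replicate 3 was highest in the one and lowest in the other. Of the 6 members that overlapped between Int1 and Int2, Sobic.004G159733.1 was at 0 in all Int1 libraries and in Int2 replicate 3, with 1.22 and 0.47 in the other Int2 libraries. Without single libraries in turn, 50 of the 106 members met the rule in all 12 sets and 56 dropped out of at least 1. Every step was at least 3-fold in 11 members, among them Sobic.002G207300.1, Sobic.006G211701.1 and Sobic.001G410100.1.

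Transcripts of 1 locus share sequence, so reads can be divided between them and a value for a single transcript is less certain than one for a locus with 1 transcript. Of the 104 member loci, 91 have 1 transcript in the table, which is 87.5%, beside 82.0% of loci among the other transcripts with a ratio of at least 8 and 74.6% of all tested loci. At 2 loci a pair of transcripts met the rule. Sobic.001G125000.1 read 0.28, 2.5 and 0.68 in Int1, 8.10, 7.78 and 3.80 in Int2, 42.5, 38.0 and 35.1 in Int3 and 180, 136 and 113 in Int4, and Sobic.001G125000.3 reached 65.0, 58.0 and 86.3 in Int4 from 1.5, 1.7 and 1.47 in Int1. At the other locus, Sobic.007G175900.1 had an Int4 mean of 14.9 RPKM and Sobic.007G175900.2 one of 24.5, from Int1 means of 0.0733 and 0.08. The member loci with several transcripts have 15 further transcripts that did not meet the rule. All 15 were higher in Int4 than in Int1, but only 3 had a ratio of at least 8, and 7 had an Int4 mean of at least 5. Some stayed at the floor, such as Sobic.008G010400.2, with means of 0 in Int1 and 0.07 in Int4. The share of all tested transcripts higher in Int4 than in Int1 was not counted. Sobic.002G207300.2, of the locus with the largest ratio, went from a mean of 1.77 to 58.7 RPKM, and Sobic.007G201100.2 went from 0.787 to 77.1, above the Int4 mean of 63.8 of the member Sobic.007G201100.1 at the same locus.

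Sorghum identifiers give the chromosome and the order of the loci along it, and these were used to look at where members lie. Member loci were found on all 10 chromosomes, with the highest number on chromosome 1, where they were 21 of 3665 tested loci. Their share ran from 0.191% of tested loci on chromosome 5, with 2 members, to 0.783% on chromosome 6, with 14. Of 206 loci directly beside a member locus 129 were tested, and 16 of these, or 12.4%, had a transcript with a ratio of at least 8 from Int1 to Int4 and an Int4 mean of at least 5. Over all tested loci the share was 4.08%, and among neighbours that are not members themselves it was 8.13%. Within 2 places, 8 member loci had another member and 23 had a transcript with such a ratio. These count member loci rather than neighbours. No matching share over all tested loci was taken, so they are not comparable with the percentages above. Adjacent loci are often copies of 1 gene, between which reads can be divided, and without sequences this was not tested. The loci described next that are not members were chosen after their values were seen.

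On chromosome 1, Sobic.001G259600.1 had RPKM of 0.87, 0.97 and 0.96 in Int1, 2.48, 4.15 and 5.64 in Int2, 14.6, 15.7 and 17.5 in Int3 and 59.1, 42.9 and 41.3 in Int4. The next locus, Sobic.001G259700.1, read 1.62, 3.57 and 2.27, then 5.45, 7.52 and 13.0, then 38.6, 33.8 and 34.4, and in Int4 140.0, 112 and 123. Another member, Sobic.001G259900.1, follows with an Int4 mean of 45.1 RPKM after 2 loci that stayed level, one of which, Sobic.001G259800.1, had means of 6.63 in Int1 and 5.32 in Int4. In all 3 members Int2 replicate 3 was the highest Int2 library, as in 35 of all 106 members.

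On chromosome 4, Sobic.004G064400.1 and Sobic.004G064500.1 lie side by side. The first read 0.69, 1.45 and 0.95 in Int1, 3.22, 4.41 and 6.04 in Int2 and 20.4, 18.7 and 21.1 in Int3, before the uneven Int4 values given above. The second read 0, 0.14 and 0.22 in Int1, 1.17, 1.08 and 1.11 in Int2, 11.57, 9.29 and 15.13 in Int3 and 45.0, 27.2 and 37.7 in Int4. In both, Int4 replicate 1 was the highest and replicate 2 the lowest. Of all 106 members, 71 were highest in Int4 replicate 1 and 21 lowest in Int4 replicate 2.

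On chromosome 6, Sobic.006G060800.1 went from Int1 values of 0.12, 0.23 and 0.13 RPKM to Int4 values of 33.5, 38.4 and 36.3, and the next locus, Sobic.006G060900.1, from 0.07, 0.27 and 0 to 27.3, 19.8 and 21.1. The locus before them, Sobic.006G060700, is not a member, and its transcript Sobic.006G060700.2 had an Int4 mean of 5.97 from 0.02 in Int1. On chromosome 10, Sobic.010G101900.1 read 0.78, 1.85 and 1.67 in Int1, 9.79, 10.3 and 8.08 in Int2, 44.3, 46.7 and 55.8 in Int3 and 140, 135 and 149.9 in Int4, one of the steadiest in Int4. Beyond 1 locus with next to no signal, Sobic.010G102000.1 reached 34.0, 25.6 and 23.2 in Int4 from 0.96, 1.48 and 1.3 in Int1.

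A longer run lay elsewhere on chromosome 6, around the member Sobic.006G026400.1. It was followed outwards from this locus for as long as no more than 2 loci in a row lacked a transcript with a ratio of at least 8 and an Int4 mean of at least 5. This transcript read 0, 0 and 0.32 in Int1, 0.82, 2.19 and 0.17 in Int2, 13.0, 28.9 and 22.2 in Int3 and 88.4, 118 and 103 in Int4, and its Int1 and Int2 libraries overlapped. Without Int2 replicate 2 it no longer met the rule. Of the 16 loci from Sobic.006G025400 to Sobic.006G026700, 11 had such a transcript, as the way the run was drawn favours, but Sobic.006G026400.1 was the only one that doubled at each step. The others, apart from Sobic.006G026700.1, stayed near 0 in Int1 and Int2 and came up later. Sobic.006G025900.2 was at 0 in all 6 libraries of Int1 and Int2, at 0.17, 12.9 and 0.17 in Int3 and at 179, 299 and 317 in Int4. Sobic.006G026100.1 read 1.12, 49.8 and 0.77 in Int3 and 149, 366 and 259 in Int4, so Int3 replicate 2 stood apart in both. Sobic.006G026700.1 came closest to the member, with means of 1.78, 3.73, 43.2 and 142 RPKM. A locus amid the run, Sobic.006G026250.1, went the other way, from a mean of 9.98 in Int1 to 5.29 in Int4, and 4 of the 16 loci had Int4 means under 5.

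**Figure D4:**
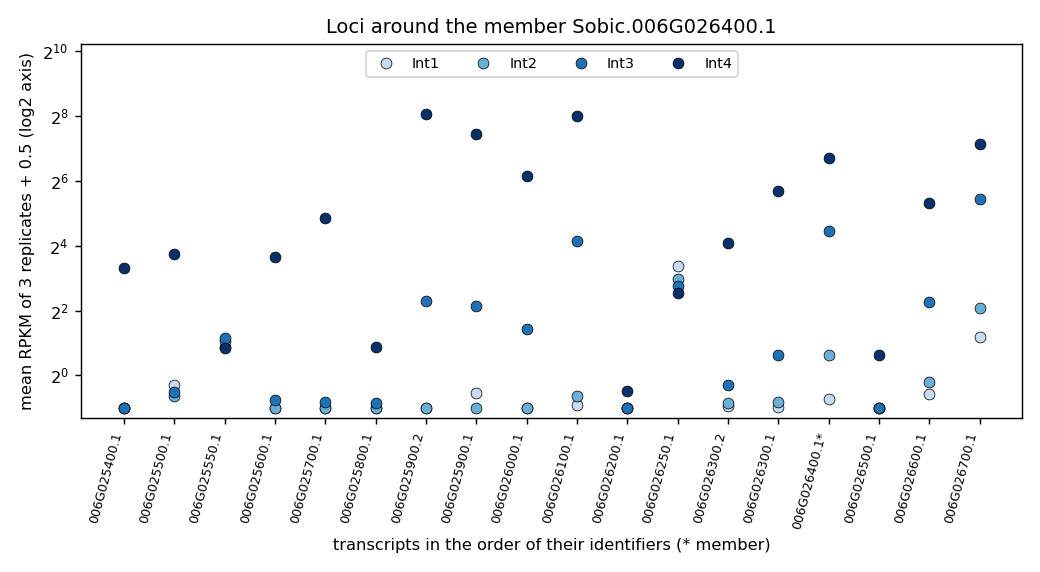
Mean RPKM of 3 replicates plus 0.5, on a log2 axis, of 18 transcripts at 16 loci in the order of their identifiers, in Int1 to Int4 from light to dark. Sobic.006G026400.1, marked with an asterisk, at least doubles at every step on this scale with 0.5 added. Sobic.006G025900.2 and others show Int1 and Int2 at or near 0 and a gap up to Int4, and Sobic.006G026250.1 runs in the reverse order.

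On chromosome 3, Sobic.003G397500.1 read 3.21, 2.53 and 1.17 in Int1, 13.3, 4.09 and 6.81 in Int2, 8.41, 25.8 and 64.3 in Int3 and 305, 278 and 176 in Int4, with overlap between Int2 and Int3. The nearby Sobic.003G397300.1 and Sobic.003G397600.1 are not members and were more abundant in Int1, with means of 32.1 and 13.9 RPKM, and in Int4, with 375 and 611. Between Sobic.003G397300.1 and the member lies Sobic.003G397400.1, with means of only 0.0367 RPKM in Int1 and 1.87 in Int4. Sobic.003G397300.1, Sobic.003G397500.1 and Sobic.003G397600.1 all had their lowest Int3 value in replicate 1 and their lowest Int4 value in replicate 3. These orders were common, found in 75 and 68 of the 106 members in turn.

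Within an internode the members shared part of their deviations. Each transcript's log2(RPKM + 0.5) was compared with its mean in the same internode, and the median of these deviations was taken over the members in each library. These deviations come from the values the rule used, though the rule itself reads only the means, and they are given as a description. In Int4 the median was 0.19 in replicate 1, 0.00 in replicate 2 and -0.18 in replicate 3, and 71 of 106 members had their highest Int4 value in replicate 1 and 68 their lowest in replicate 3. In Int3 it was -0.24, 0.08 and 0.11, with 75 members lowest in replicate 1, and in Int1 -0.18, 0.17 and 0.00, with 68 members lowest in replicate 1. Int2 gave -0.13, 0.14 and 0.02. Counts of highest and lowest libraries were not made for other transcripts, whose medians are given next.

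Transcripts that declined along the stem deviated the other way in the older internodes. For the 405 transcripts with an Int1 mean of at least 5 and a ratio of at least 8 from Int4 up to Int1, the median deviation in Int4 was -0.33, -0.21 and 0.57 in replicates 1, 2 and 3, and in Int3 it was 0.24, 0.05 and -0.28. Over all tested transcripts the Int4 medians were -0.05, 0.00 and 0.06, closer to 0 than those of the members in replicates 1 and 3. The other 749 transcripts with a ratio of at least 8 had medians of 0.15, 0.00 and -0.14 in Int4 and -0.22, 0.04 and 0.17 in Int3. Int4 replicate 3 thus lay nearer to Int3 for both sets, and Int3 replicate 1 nearer to Int2. What sets these libraries apart was not tested. Without Int4 replicate 3 the rule was met by 116 transcripts, without Int4 replicate 1 by 91 and without Int3 replicate 1 by 90.

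**Figure D5:**
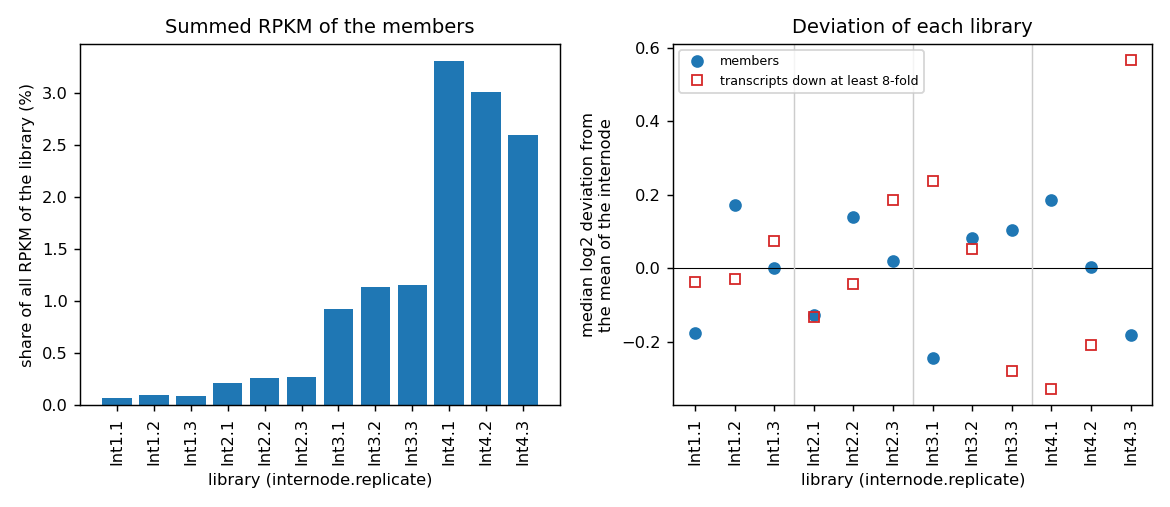
Left, the summed RPKM of the 106 members as a percentage of all RPKM in each of the 12 libraries, from 0.0720% in Int1 replicate 1 to 3.301% in Int4 replicate 1. Right, the median log2 deviation from the mean of the internode in each library for the members (filled circles) and for 405 transcripts with a ratio of at least 8 in the falling direction (open squares), which lie on opposite sides of 0 in replicates 1 and 3 of both Int3 and Int4.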

How the data were processed

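RNA was sequenced from Int1, Int2, Int3 and Int4 with 3 replicates each. With the CLC genomics workbench, the authors aligned single-end reads to sorghum transcripts (annotation v3.1). The deposited table gives RPKM to 2 decimals, with no filter and no further scaling that their methods name. Columns were assigned by their titles, and 0 columns were left unused. Counts and transcript lengths are not known here, so edgeR, which the authors used, was not run and no counting interval is given.

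Members were found in the means of 3 replicates as described. The members and the gene lists were chosen with earlier results of these data known. For calls, log2(RPKM + 0.5) of 26320 transcripts whose mean RPKM reached 1 in some internode was fitted by limma 3.58.1 (R 4.3.3), the 12 libraries sharing 1 model with a mean for each internode, a prior variance following the mean (3.64 prior degrees of freedom) and Benjamini-Hochberg adjustment within a comparison. Deviations from the internode means correlated between Int1 and Int2 libraries of equal number (r of 0.13, 0.104 and 0.137 over transcripts), and the replicate number was tried as a block. Between other internodes equal numbers did not all exceed 0.1 (0.221, 0.045 and 0.235 for Int2 and Int4). Some were negative, with -0.147, 0.053 and -0.268 for Int2 and Int3 and -0.233, 0.182 and -0.339 for Int3 and Int4. The highest values joined unlike numbers, 0.374 for Int3 replicate 3 with Int4 replicate 1 and 0.334 for Int3 replicate 1 with Int4 replicate 3.

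Named were the 10 members highest in Int4, the 10 with the largest ratios, the 3 nearest the rule's edge on each side, the 5 steadiest and 5 least steady in Int4, up to 4 per annotation group, and members that share a locus or lie next to another member. Other transcripts were named after their values were seen. Annotation came from the study's list of Arabidopsis matches. The RefSeq table matched 0 members, so no promoter, motif or sequence comparison was made. Python 3.11.15, numpy 2.4.6, pandas 2.3.3 and matplotlib 3.10.9 were used. Alternatives were other pseudocounts, step ratios, Int4 minimums, medians, median-ratio scaling over 17722 transcripts with RPKM of at least 1 in every library, no filter, another p, a fit of the 6 libraries compared, the block, and leaving out each library.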

Additional observations from a re-analysis of the deposited data

How the results depend on the processing

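The number of transcripts that met the rule was 106, and it was set mainly by the pseudocount and the least step. It was 191 with a pseudocount of 0.1, 68 with 1, 391 with a least step of 1.5-fold and 11 with 3-fold. An Int4 minimum of 2 or none gave 106, one of 10 gave 104, medians of replicates 102 (85 of them members), median-ratio scaling 138 (all 106 members among them), and leaving out 1 library 90 to 118. Members called higher in Int2 than in Int1 by limma were 23, and 3 with no filter on low values. They were 75 at an adjusted p under 0.05 with the limits on fold change and mean RPKM kept. They were 0 in a fit of the 6 libraries compared and 5 to 21 with 1 library left out. In that 6-library limma fit 103 members had an unadjusted p under 0.05, for which no share over all tested transcripts was taken. Members called higher in Int3 than in Int2 were 86, and 50 with no filter, 52 in 6 libraries and 58 to 73 with 1 left out. Those for Int4 over Int3 were 48, and 14 with no filter, 104 at an adjusted p under 0.05 with the same limits kept, 23 in 6 libraries and 23 to 36 with 1 left out. The cause of the lower counts with no filter was not tested, and the fits of 6 or 11 libraries have fewer samples. With the replicate number as a block the counts were 17, 79 and 43, within 1.5 times of those without it. For these alternative settings the share of all tested transcripts called is not given here, so the changes cannot be read as particular to the members.

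The step from Int2 to Int3 was the largest for 73 members, for 66 and 74 with pseudocounts of 0.1 and 1, for 69 after scaling and for 60 to 78 with 1 library left out. These settings were chosen after seeing the data, as were those for the 9 transcripts of the mirrored rule, which became 22 and 3 with pseudocounts of 0.1 and 1, 141 and 0 with steps of 1.5-fold and 3-fold, 19 with medians, 2 after scaling, 5 without Int3 replicate 2 or Int4 replicate 2 and 21 without Int4 replicate 3. The log2 ratio from Int1 to Int4 of the 45 members named by rule stayed above 0 in all 405 values recomputed, the lowest being 3.11, and 61 moved by more than 1 SD, at most by 2.14. Depth limits the low Int1 values, where 1 read more or less changes a ratio, and without counts its size cannot be given.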
